A study of Mus musculus with 8 samples.

Results

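Milk lipid leaves the mammary epithelial cell as a milk fat globule, and the genes described here encode 8 proteins of that route: Btn1a1, Xdh, Plin2, Plin3, Cidea, Mfge8, Muc1 and Rab18. They were grouped by their known roles, as lipid droplet coat and traffic genes and as globule membrane genes, and the rule that picks them uses no measured value. The list itself was chosen with earlier results of these data known. A member was any gene whose symbol was reached from the accession that a probe carries in the array design. All 8 were found, with 11 probes in all, among 18749 genes that had a matched probe, of which 14166 passed the filter on dim probes and were tested. RNA was taken on lactation day 1 from the No. 4 mammary glands of 8 dams, 4 of them wild type (WT) and 4 with a knockout of Th-POK (KO), and each dam had an array of its own. Th-POK is the transcription factor that the gene Zbtb7b encodes, and it is best known for directing T cell precursors to the helper lineage. All dams were age-matched females of the C57/Bl6 background on a standard chow diet. Neither the labels nor the methods name a treatment or restrict the knockout to a tissue, so the KO dams lacked the factor outside the mammary epithelium too.

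In lactation, triacylglycerol made at the endoplasmic reticulum is stored in cytoplasmic lipid droplets that carry coat proteins of the perilipin family and grow by fusion as they move to the apical side of the cell. There the droplet is wrapped in plasma membrane and released into the lumen. Butyrophilin (Btn1a1), xanthine dehydrogenase (Xdh) and the droplet coat protein adipophilin (Plin2) are the classical partners at this last step. Mice that lack Btn1a1 or carry 1 copy of Xdh are known for defects in globule release. The study asked how loss of Th-POK changes gene expression in the gland at the onset of lactation, and secretion of milk lipid was among the processes it followed.

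The fluorescence of each spot, after background subtraction by the scanner software, is given here on the log2 scale after quantile normalization, which makes the distribution of signals the same on all 8 arrays. A log2 fold change is the KO mean minus the WT mean, so -1 stands for a halving. On each array 66.8% to 75.3% of the probes stood well above background, and 64 to 100 spots per array were marked as outliers and left out. Zbtb7b served as a check of the labels: its signal lay between 9.90 and 10.42 on the WT arrays and was not well above background on any KO array, at least 81.5-fold lower. Each slide carried the 4 arrays of 1 genotype, and slide and genotype therefore cannot be told apart in any comparison below. In whole gland RNA, fewer cells of a type and less RNA per cell cannot be told apart either. Gene-wise tests used limma with Benjamini-Hochberg adjustment over all 14166 genes, and a gene was called at an adjusted p under 0.05. With 4 arrays per genotype, precision is limited by their number and by the spread among them.

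All 8 globule genes passed the filter, each well above background on every array that gave a value, and 1 of the 8 was called, Muc1, which fell in KO glands. Over all genes tested, 16.5% were called in either direction, 8.96% lower and 7.53% higher in KO, so 1 of 8 is near the background. Rab18 had the largest difference of the members in size, a log2 fold change of -1.03, and its adjusted p of 0.0596 missed the threshold. Of the other members, Btn1a1, Xdh and Cidea had lower means in KO glands, Plin2 and Plin3 had higher means, and none of these 5 passed the test. Mfge8 could not be compared on the quantile-normalized scale. The median log2 fold change of the 8 was -0.23, against -0.02 over all genes tested. The genotypes did not overlap for 1 of the 8, against 24.1% of all genes tested. Mfge8 carries no information in these counts, and without it 1 of 7 was called, 1 of 7 did not overlap and the median was -0.28.

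**Figure D1:**
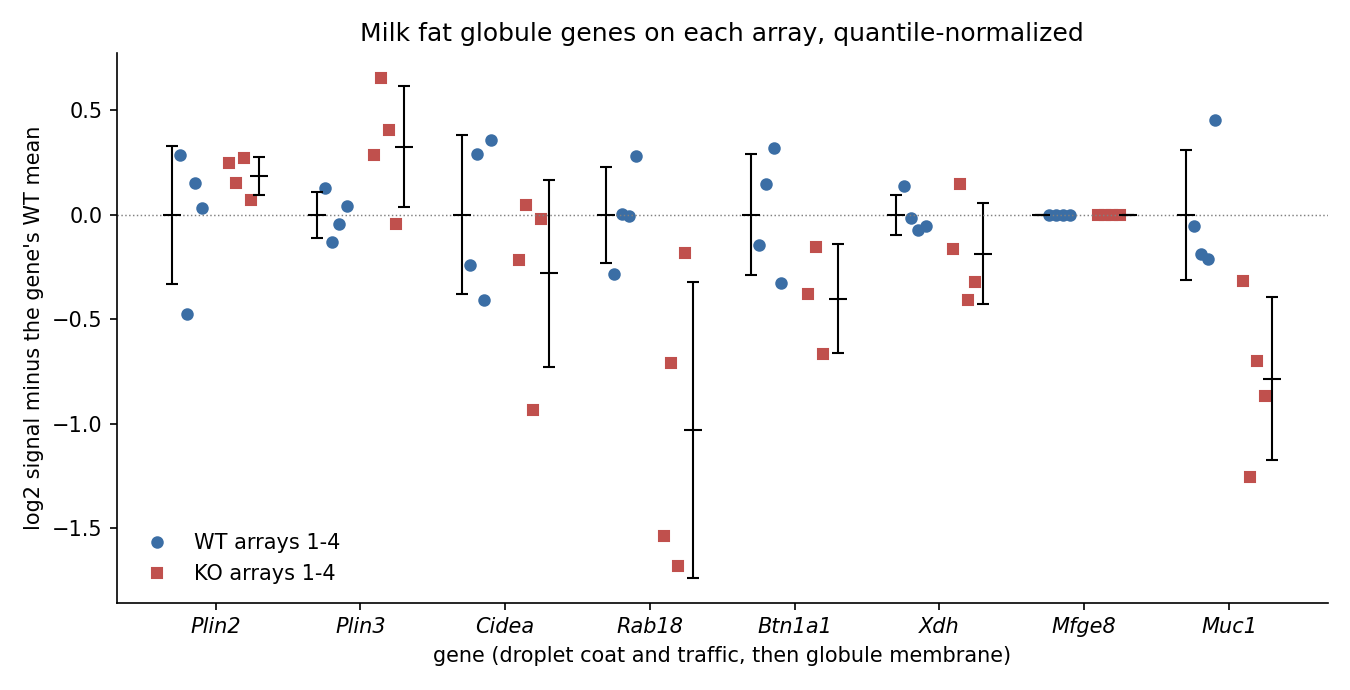
Signal of each milk fat globule gene on each array, as log2 signal minus the mean of the gene's WT arrays (vertical axis), with 4 WT arrays as blue circles and 4 KO arrays as red squares from replicate 1 at the left to 4 at the right. Black marks give the mean ± SD of each genotype, Btn1a1 has 3 KO arrays, and Mfge8 has no spread because of the normalization. All KO squares of Muc1 lie below its WT circles, and the KO squares of Rab18 spread widest.

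Muc1 encodes a heavily glycosylated mucin that spans the apical membrane and is carried onto the globule. Its log2 signal was 11.10, 10.97, 10.94 and 11.61 on WT arrays 1 to 4 and 10.84, 9.90, 10.46 and 10.29 on KO arrays 1 to 4. All KO arrays lay below all WT arrays, the closest being KO array 1, and among all genes tested 12.9% showed KO wholly below WT. The means were 11.16 ± 0.31 in WT and 10.37 ± 0.39 in KO (SD, n = 4 each), a log2 fold change of -0.78 (SE 0.22, 95% interval -1.29 to -0.27, adjusted p = 0.0466). KO glands thus had 41.9% less Muc1 signal. The exact permutation test (two-sided, 70 relabelings) gave p = 0.0286, the smallest value that 4 against 4 arrays allow. Within the 4 pairs of same-numbered arrays, KO was lower in 4 of 4, and exact sign flips gave p = 0.125, the smallest that 4 pairs allow.

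The array carries a pair of Muc1 probes, and both gave the same picture. The second probe read 10.88, 10.63, 10.70 and 11.36 on the WT arrays and 10.58, 9.70, 10.18 and 9.99 on the KO arrays, again without overlap. In a fit with each probe as a feature of its own, where 14.8% of 20905 probes were called, the adjusted p was 0.0476 for the first Muc1 probe and 0.0461 for the second, with a log2 fold change of -0.78 for each. The call of Muc1 sits close to the threshold. It was lost when any array other than KO array 1 was left out (adjusted p 0.0600 without WT array 1, 0.0873 without WT array 2, 0.0746 without WT array 3, 0.0847 without WT array 4, 0.0970 without KO array 2, 0.0982 without KO array 3 and 0.0773 without KO array 4), and it was kept at 0.0476 without KO array 1. The log2 fold change stayed between -0.94 and -0.63 across these 8 fits.

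Muc1 lies close to the targeted gene. In the gene annotation of the mouse assembly GRCm38.p6 both are on chromosome 3, with 14 annotated genes between them, 10 of them protein-coding. Of these 14 genes, 8 were tested and 2 were called, Trim46 with a log2 fold change of 0.86 (adjusted p = 0.0328) and Dcst1 with 3.14 (adjusted p = 2.59e-05), both higher in KO glands, against 16.5% called over all genes tested. The 8 spanned log2 fold changes from -0.89 to 3.14. Whether the lower signal of Muc1 is tied to its place beside the altered locus was not tested.

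Upstream sequence was at hand for 4 of the 8 members and is shown for Muc1, the called gene, and for Plin3, a member with a higher KO mean. Each line holds the 250 bases before the RefSeq gene start in GRCm38.p6, written 5′ to 3′ on the gene's own strand, at chr3:89228806-89229055 (plus strand) for Muc1 and chr17:56290512-56290761 (minus strand) for Plin3. Capitals mark GC boxes (GGGCGG) and TATA boxes (TATAAA) found on either strand.
Muc1: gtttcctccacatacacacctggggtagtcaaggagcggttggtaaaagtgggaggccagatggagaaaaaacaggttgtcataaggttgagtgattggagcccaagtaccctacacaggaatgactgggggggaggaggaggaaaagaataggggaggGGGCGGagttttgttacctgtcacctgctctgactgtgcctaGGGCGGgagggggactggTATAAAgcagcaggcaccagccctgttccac
Plin3: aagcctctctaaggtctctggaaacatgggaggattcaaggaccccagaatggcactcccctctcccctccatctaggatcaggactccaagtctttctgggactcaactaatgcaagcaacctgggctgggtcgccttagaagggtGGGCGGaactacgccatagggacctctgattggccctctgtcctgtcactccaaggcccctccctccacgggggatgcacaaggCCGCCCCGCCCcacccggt
The Muc1 stretch holds 2 GC boxes, which begin 91 and 49 bases before the gene start, and 1 TATA box, which begins 31 bases before it. The Plin3 stretch holds 3 GC boxes, at 103, 19 and 14 bases before the start, the last pair of which overlap, and no TATA box. GGGCGG occurred in 32.7% of 32851 promoter stretches of this length and TATAAA in 12.4%. The same search for TTCNNNGAA, the palindrome that STAT factors bind, and for CACGTG, an E-box, found neither in these stretches, and they occurred in 7.02% and 6.02% of all stretches. The GC content was 54.8% for Muc1 and 60.0% for Plin3. These matches describe the letters of the windows only.

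Rab18 is a small GTPase that sits on lipid droplets and their contacts with the endoplasmic reticulum. Its log2 signal was 14.07, 14.36, 14.35 and 14.63 on WT arrays 1 to 4 and 12.82, 13.64, 12.67 and 14.17 on KO arrays 1 to 4. KO arrays 1, 2 and 3 lay below every WT array, while KO array 4 lay above WT array 1. The means were 14.35 ± 0.23 in WT and 13.32 ± 0.71 in KO (SD, n = 4 each), and the SD of the KO arrays was the largest among the members. The log2 fold change of -1.03 (SE 0.32, 95% interval -1.76 to -0.29) corresponds to KO signal at 0.491 of WT, with an adjusted p of 0.0596 and an exact permutation p of 0.0571.

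The second Rab18 probe read 12.25, 12.50, 12.34 and 12.87 on the WT arrays and 10.79, 11.53, 10.63 and 12.31 on the KO arrays. The same KO array, number 4, was again within the WT range, and the log2 fold change was -1.18 (adjusted p = 0.0544 in the fit of each probe). Rab18 was called in 1 of the 8 fits that leave out an array, the one without KO array 4 (log2 fold change -1.31, adjusted p = 0.0217). In the other fits of this kind its adjusted p ran from 0.0607 to 0.137. A fit blocked on array number, so that same-numbered WT and KO arrays form pairs, called it (log2 fold change -1.03, adjusted p = 0.0319). KO was lower in 4 of 4 pairs, and the exact sign-flip p was 0.125, the lowest possible with 4 pairs. Scaling each array to its 75th percentile gave a call at -1.15 (adjusted p = 0.0476). Of 10 other settings, only the block and this scaling called Rab18, and adjusted p in the rest ran from 0.0564 to 0.118.

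**Figure D2:**
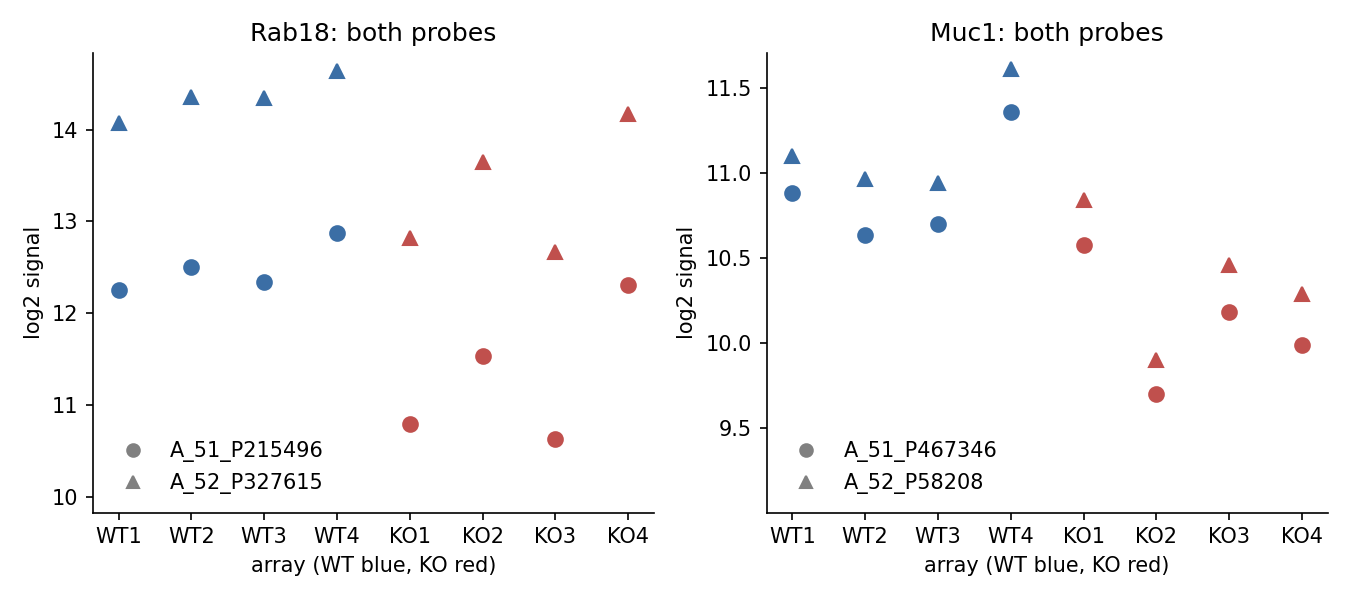
Log2 signal of both probes of Rab18 (left) and of Muc1 (right) on each array, WT in blue and KO in red, with a symbol for each probe. The probes of a gene move together from array to array, KO array 4 of Rab18 reaches the WT range with both probes, and all KO arrays of Muc1 lie below all WT arrays with both.

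Plin2, or adipophilin, coats the droplets of the lactating cell and stays on the secreted globule. Log2 signals were 18.23, 17.47, 18.10 and 17.98 on the WT arrays and 18.19, 18.10, 18.22 and 18.02 on the KO arrays. WT array 2 lay below the rest and the other 7 arrays spanned a narrow range shared by both genotypes. The log2 fold change was 0.19 (SE 0.16, 95% interval -0.19 to 0.56, adjusted p = 0.446), so these arrays do not exclude a KO level higher or lower by a modest amount. Its spot ranked between 13 and 59 among the 43379 spots of an array, at the bright end, where quantile normalization leaves little room to move. Without WT array 2 it was 0.028. With 75th percentile scaling, which fixes 1 point of the distribution only, the log2 fold change was 0.04 (95% interval -0.30 to 0.37).

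Plin3, known as TIP47, is a perilipin that moves from the cytosol onto small new droplets. WT arrays 1 to 4 read 13.47, 13.21, 13.30 and 13.39 and KO arrays 1 to 4 read 13.63, 14.00, 13.75 and 13.30 (log2 signal). KO arrays 1 to 3 lay above every WT array and KO array 4 within them. KO exceeded WT by a log2 fold change of 0.33 (SE 0.15, 95% interval -0.02 to 0.67, adjusted p = 0.158), with an exact permutation p of 0.0857. It was 0.18 with 75th percentile scaling, and Plin3 was not called under any alternative.

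Cidea promotes the fusion and enlargement of lipid droplets and is also a well-known gene of brown fat. WT arrays 1 to 4 read 16.98, 17.51, 16.82 and 17.58 and KO arrays 1 to 4 read 17.01, 17.27, 16.29 and 17.21 (log2 signal), with the genotypes interleaved except for the low KO array 3. KO minus WT was -0.28 on the log2 scale (SE 0.26, 95% interval -0.87 to 0.31, adjusted p = 0.467), and -0.071 without KO array 3. Brown fat genes varied widely among the arrays: Ucp1, the uncoupling protein that defines brown fat, read 3.0, 1.7, 11.0 and 11.1 on the WT arrays and 9.0, 12.8, 11.4 and 5.8 on the KO arrays. Cidea was bright on WT array 2, where Ucp1 was at its lowest, and lowest on KO array 3, where Ucp1 was bright. Both genes were bright on WT array 4 and KO array 2. The part of brown fat in the Cidea signal was not tested.

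Btn1a1 is the butyrophilin of the apical membrane, where it binds xanthine dehydrogenase. The log2 signal of Btn1a1 was 12.53, 12.82, 12.99 and 12.35 on the WT arrays and 12.29, 12.52 and 12.00 on KO arrays 1 to 3. Its spot on KO array 4 was marked as an outlier by the scanner software and left out, so that the fit used 7 arrays. KO array 2 overlapped the WT range, and the log2 fold change was -0.40 (SE 0.20, 95% interval -0.86 to 0.06, adjusted p = 0.181). With the marked spot kept, KO array 4 read 11.73, the lowest of the 8, and the log2 fold change was -0.53 (adjusted p = 0.0994). By the exact permutation test over 35 relabelings of the 7 arrays, p was 0.114.

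Xdh is the enzyme that, besides its part in purine breakdown, anchors the globule membrane complex. Its brighter probe read 15.08, 14.93, 14.87 and 14.89 on the WT arrays and 14.78, 15.09, 14.54 and 14.62 on the KO arrays. KO arrays 1, 3 and 4 lay below every WT array, while KO array 2 lay just above the highest WT array. This probe gave a log2 fold change of -0.19 (SE 0.14, 95% interval -0.49 to 0.12, adjusted p = 0.352), and the second probe gave -0.11 (adjusted p = 0.690 in the fit of each probe). With 75th percentile scaling the value was -0.38 (95% interval -0.68 to -0.09, adjusted p = 0.0720) and the genotypes no longer overlapped, so the size of the Xdh difference rests on how the arrays are scaled, while the call does not.

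Mfge8, or lactadherin, binds phosphatidylserine on the globule surface and on dying cells. Its spot was the second in brightness of 43379 on every array, so quantile normalization gave it the same value, 18.96, on all 8, and a difference on that scale would have been impossible to see. On the scale of each array's 75th percentile its log2 signal was 9.44, 9.84, 9.58 and 9.91 on the WT arrays and 9.82, 9.51, 9.39 and 9.80 on the KO arrays. The genotypes were interleaved, with a log2 fold change of -0.06 (SE 0.15, 95% interval -0.41 to 0.28, adjusted p = 0.784).

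**Figure D3:**
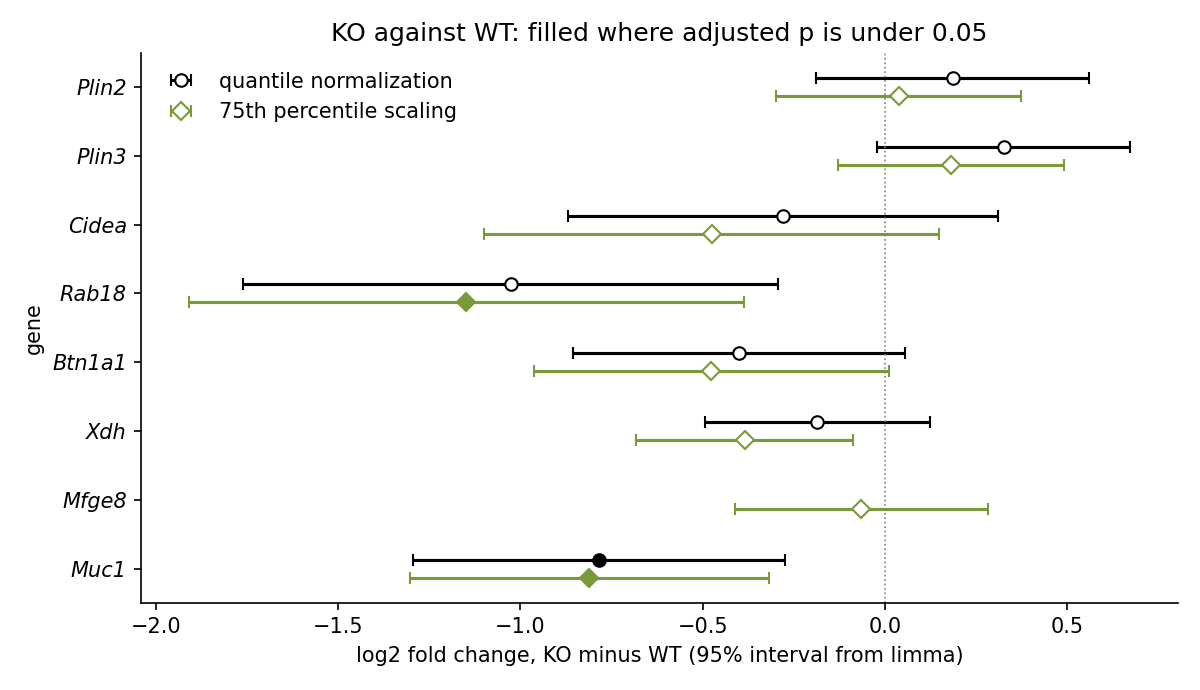
Log2 fold change of each gene, KO minus WT, with the 95% interval from limma, after quantile normalization (black circles) and after 75th percentile scaling (green diamonds). Filled symbols had an adjusted p under 0.05: Muc1 under both scalings and Rab18 under the second, while Mfge8 is shown for the second only.

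Other genes of the pathway, in 5 lists of 60 genes without the members, were read from the same fit. Of the 51 tested, 10 were called, 6 higher and 4 lower in KO glands, against the background of 16.5%, and their median log2 fold change was 0.06. Of these 10, 6 were droplet coat and droplet biogenesis genes, a count that was 1 without KO array 3, 2 without WT array 2, KO array 1 or KO array 2, 3 without WT array 3 and 6 without any other array. Where that count fell, calls over all genes tested fell too. They were 519 of 14274 without KO array 3, 762 of 14299 without WT array 2 and 750 of 14173 without KO array 1. They were 962 of 14179 without KO array 2 and 982 of 14203 without WT array 3, against 2336 of 14166 with all arrays. Of the 11 droplet genes tested, 4 were higher and 2 lower, with a median of 0.59, and 3 of the 14 listed were not tested. Among the 18 other globule membrane genes 1 was higher and 1 lower (median 0.09). Among 14 genes of the apical secretion machinery 1 was higher (median -0.004), among 6 Rab18 partners 1 was lower (median -0.37), and of the 2 other butyrophilin family genes that were tested, out of 7 listed, neither was called.

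G0s2, an inhibitor of the lipase ATGL that sits on droplets, showed the largest change of the droplet genes. Its log2 signal was 14.31, 14.74, 14.48 and 15.07 on the WT arrays and 12.04, 12.60, 12.92 and 13.38 on the KO arrays, without overlap. It fell by 1.91 on the log2 scale (SE 0.28, adjusted p = 0.00952) and stayed called in each of the 8 fits that leave out an array. Plin5, the perilipin of tissues that burn fat, rose. On the log2 scale it read 8.76, 7.88, 8.68 and 8.87 on the WT arrays and 9.75, 10.65, 9.91 and 9.63 on the KO arrays, a log2 fold change of 1.43 (SE 0.28, adjusted p = 0.0183) that was called in all such fits except the one without KO array 3 (adjusted p = 0.0531).

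The other droplet genes that were called moved by less. Hsd17b11, a droplet-bound dehydrogenase, was higher by 0.77 (adjusted p = 0.0217) and Tmem159, which encodes the seipin partner Ldaf1, by 0.51 (adjusted p = 0.0221). Fitm2, which helps droplets bud from the endoplasmic reticulum, was lower by a log2 fold change of -0.74 (adjusted p = 0.0346). Plin1, the perilipin of adipocytes, was higher by 0.71 (adjusted p = 0.0403). Each of these 4 lost its call without 1 or another of the arrays: Hsd17b11 kept it in 4 of the 8 such fits, Tmem159 in 3, Fitm2 in 2 and Plin1 in 1.

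Among the other globule membrane genes, Slc34a2, a sodium and phosphate cotransporter of the apical membrane, fell. Its log2 signal was 11.38, 12.08, 11.25 and 11.90 on the WT arrays and 9.52, 9.83, 8.59 and 10.59 on the KO arrays. The log2 fold change was -2.02 (SE 0.39, adjusted p = 0.0176), and it lost its call without WT array 2 only (adjusted p = 0.0513). Cd59a, a membrane inhibitor of complement, was higher by 0.86 (adjusted p = 0.0418), a call that among the fits without 1 array was kept only without WT array 1.

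The Rab18 partners are the exchange factors, the activating protein and the tether that work with this GTPase. Zw10, a subunit of the tether at the endoplasmic reticulum, was lower by a log2 fold change of -0.44 (adjusted p = 0.0211), with 10.08, 10.17, 10.28 and 10.20 on the WT arrays and 9.67, 9.69, 9.80 and 9.82 on the KO arrays. Its spread within a genotype was narrow, yet the call was kept in 3 of the 8 fits without 1 array. Of the 6 partners, 5 had negative log2 fold changes, against 7423 of all 14166 genes tested, and only Zw10 was called. In the apical list Afap1, which links Src to actin, was higher by 0.65 (adjusted p = 0.0314), but its probes disagreed, since the mean of its probes gave 0.28 (adjusted p = 0.179), and its call was kept in 2 of the 8 fits without 1 array. The butyrophilins Btnl9 and Btn2a2 had log2 fold changes of -0.22 (adjusted p = 0.424) and 0.02 (adjusted p = 0.969).

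**Figure D4:**
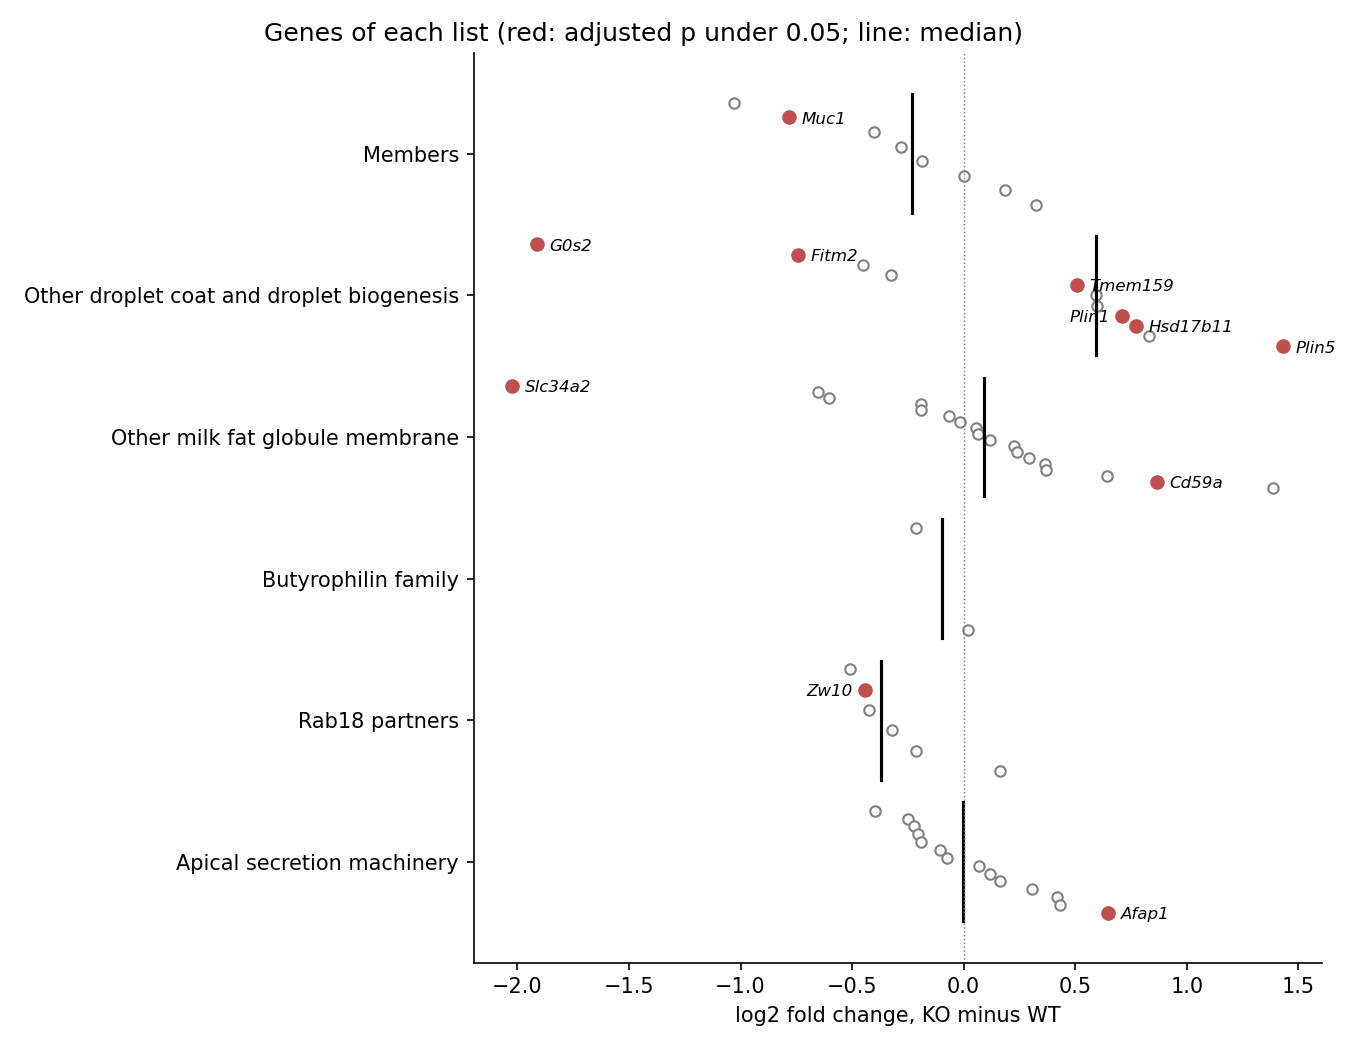
Log2 fold change, KO minus WT, of the 8 milk fat globule genes (top row) and of the tested genes of 5 further lists, 1 point per gene. Red points had an adjusted p under 0.05 and are named, open points did not pass, and the black line is the median of the list. Mfge8 is the point at 0 in the top row, set there by the normalization, and the called droplet coat genes lie on both sides of 0.

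Several members are also made by cells other than the secretory epithelium, so the levels of cell type markers are given beside them. The mean log2 signal of 10 luminal and secretory epithelial markers was 15.23 to 15.45 on the WT arrays and 15.51 to 15.68 on the KO arrays, higher in KO without overlap. Of these markers, Krt18, Epcam and Cldn3 were called higher, against 7.53% called higher and 11.2% wholly above WT among all single genes tested. In the same list the secretory markers Elf5 and Lalba had log2 fold changes of -0.35 (adjusted p = 0.107) and -0.45 (adjusted p = 0.196), and Csn2 had 0.01 (adjusted p = 0.939). Csn2 read 17.69 to 17.85 and Wap, also in the list, 18.33 to 18.48. Both lie at the bright end, where quantile normalization leaves little room to move. Muc1, itself a luminal gene, was lower on the same arrays, and the part of cell makeup in its signal was not tested. The 7 white adipocyte markers averaged 13.12 to 13.86 in WT and 13.68 to 13.93 in KO, with Plin1 and Cfd called higher. Plin1 and Cidec stand on both the droplet list and the adipocyte list, and Cd14 on both the globule membrane and the macrophage list.

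The means of the white adipocyte list overlapped between genotypes, as did those of the lists that follow. The 5 brown adipocyte markers averaged 5.52 to 9.12 in WT and 7.18 to 9.47 in KO, and the 4 macrophage markers tested averaged 10.86 to 11.71 and 11.05 to 12.09, with none called in either list. The 6 basal epithelial markers averaged 11.73 to 12.41 and 11.70 to 11.87, with Krt17 called lower, without overlap. The 5 T cell markers averaged 6.33 to 7.56 and 6.40 to 6.74, with Cd3e called lower, without overlap, and the 4 endothelial markers 9.78 to 9.99 and 9.61 to 10.03, with none called. Among all genes tested, 8.96% were called lower and 12.9% showed KO wholly below WT. Every marker tested was well above background on at least 1 array, and the part of cell makeup in the values of the members was not tested.

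The members did not vary as 1 unit over the arrays. Across the 21 pairs of the 7 members with a spread, Pearson's r ran from -0.68 to 0.70 with a median of 0.14, and from -0.69 to 0.68 with a median of 0.01 once the genotype means were removed. These are descriptions over 7 or 8 arrays that share a normalization and lie on 2 slides, each with 1 genotype. The highest r, 0.70, joined Btn1a1 and Rab18, and it was 0.34 within genotypes. The lowest, -0.68, joined Plin3 and Rab18, and it was -0.38 within genotypes. Cidea and Rab18 had r = 0.69 over all arrays and 0.68 within genotypes.

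By the same measure, genes from the 3 whose pattern was most like that of each member, among all tested, are given as a description. For Rab18 they were Nt5c2, Tbx2 and Tfrc, each at r = 0.98 over 8 arrays, and Tfrc had a log2 fold change of -1.81 (adjusted p = 0.0744). For Muc1 they included Ubl7 at 0.96 and Ms4a3 at 0.95, of which Ms4a3 (log2 fold change -1.44) was called lower. For Btn1a1 they were Rtl8c at 0.98, Srebf2 at 0.96 and Trf at 0.95 over 7 arrays, and for Xdh they included B3gntl1 at 0.92 and Lrrc8c at 0.91. For Plin2 they were Xrcc4, Ccpg1os and Wipi2 and for Plin3 Rassf1, Pde1a and Lrif1, all at 0.97 or 0.98, and for Cidea Tent5a at 0.96, Mapkbp1 at 0.95 and Tmem234 at 0.92. These genes were picked from 14166 over few arrays, so that a high r is no finding. Mfge8, with a constant value, could not be ranked.

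**Figure D5:**
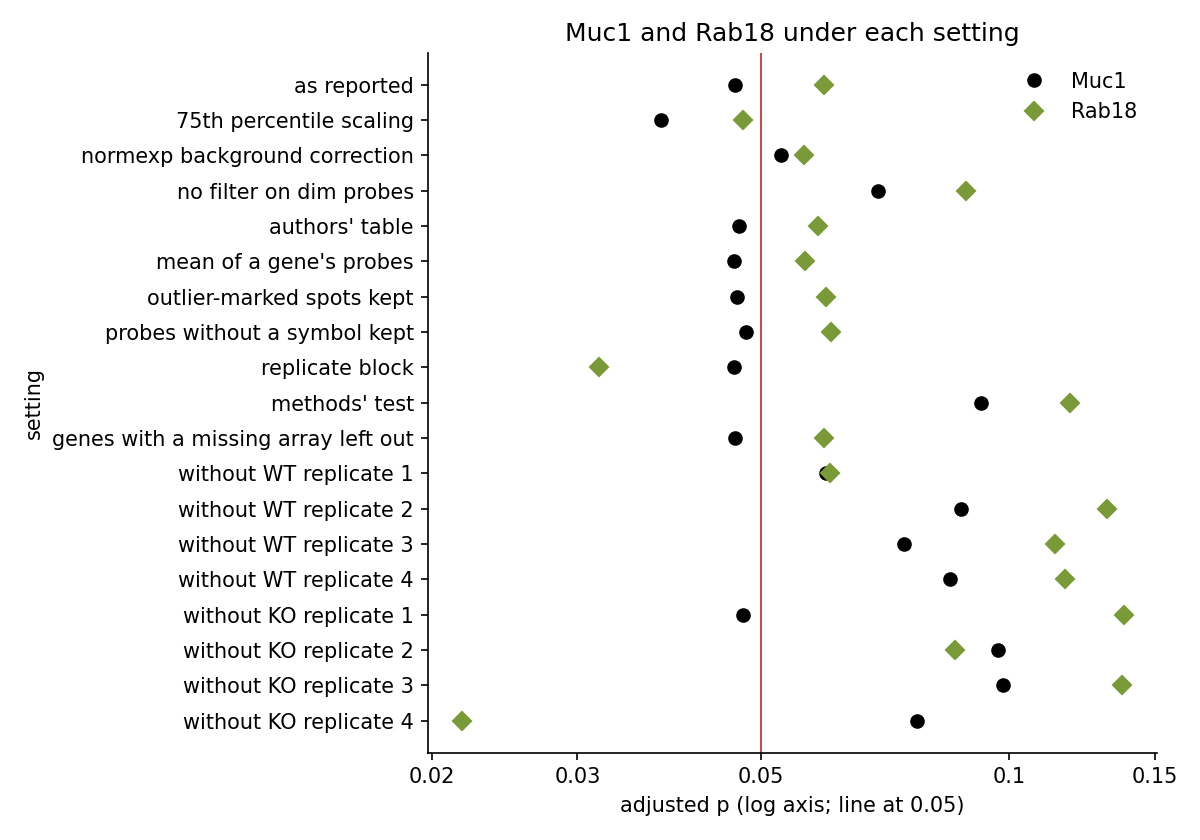
Adjusted p of Muc1 (black circles) and Rab18 (green diamonds) under the reported setting, 10 other settings and 8 fits that each leave out 1 array, on a log axis with a red line at 0.05. The points of both genes lie on both sides of the line, at 0.0466 for Muc1 and 0.0596 for Rab18 under the reported setting.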

How the data were processed

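Total RNA of each gland was labelled with Cy3 and hybridized to a one-colour Agilent mouse array. The intensities the authors deposited were background-subtracted and detrended per array by Agilent Feature Extraction 10.7. The authors also deposited log2 values, quantile-normalized in GeneSpring, used as an alternative. Here log2 intensities were quantile-normalized between arrays (limma 3.58.1, R 4.3.3), outlier-marked spots left out, spots of a probe averaged, and genes named from probe accessions through the GRCm38.p6 gene table. The design is annotated on another build, mm9. A probe entered if well above background on all 4 arrays of 1 genotype, with at most 1 array of a genotype lacking a value. The brightest probe stood for a gene. The normexp alternative used the median foreground and background signals. The methods' test was a t-test per gene. Members and lists were chosen with earlier results of these data known. Members, the targeted gene, up to 5 called genes per list (otherwise the pair with the smallest p) and genes from the 3 most alike per member are named (some are not reported here), and Plin1, Trim46 and Dcst1 were added after their values were seen. According to the methods, independent replicate sets were used, but the link within a set is not stated. Departures of arrays from their genotype mean were correlated between same-numbered WT and KO arrays (r = 0.219, 0.164, 0.304 and 0.282). Such departures cancel out within a genotype, so positive r for same numbers forces a negative mean (-0.0786) for different numbers. That mean adds no separate evidence. The numbers were taken as pairs, an assumption drawn from these same data, on which the block and sign-flip results rest. The code was tested on simulated data.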

Additional observations from a re-analysis of the deposited data

How the results depend on the processing

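Directions of Muc1 and Rab18 were the same in all 18 alternatives, but their calls were not. The members called were 2 with 75th percentile scaling, 2 with the replicate block (Muc1 and Rab18 in both) and 0 with normexp, without the filter on dim probes and with the methods' t-test. Over all genes tested, calls were 2444 of 14166 with that scaling and 2764 of 14166 with the block. They were 2268 of 14166 with normexp, 1767 of 18749 without the filter and 1394 of 14166 with the t-test. Muc1 was not called with normexp (-0.74, adjusted p = 0.0529), without the filter (-0.78, 0.0694) and with the methods' t-test (-0.78, 0.0925). Rab18 was called at -1.15 with 75th percentile scaling and at -1.03 with the replicate block. That block, which pairs arrays by number, changed no other call among the members. Non-overlapping members rose to 2 with 75th percentile scaling, where 3470 of 14166 genes tested did not overlap. The median of the members was -0.43 with 75th percentile scaling, -0.27 with normexp, -0.28 in the authors' table and -0.19 with genes lacking a value left out, an alternative added after the data were seen. Over all genes tested the medians under these settings were -0.054, -0.016, -0.022 and -0.024, in the same order. The methods' t-test called 1394 genes, against 2336, and 6 genes of the wider lists, against 10. Without 1 array at a time, 519 of 14274 genes (without KO array 3) to 3085 of 14185 (without WT array 1) were called. Non-overlapping members were 1 to 3. The count was 3 without KO array 2 and without KO array 4. There 3992 of 14179 and 4993 of 14240 genes tested did not overlap, against 3416 of 14166 with all arrays. In the fits without 1 array, 0 to 1 members and 2 to 12 genes of the wider lists were called. The median of the members was -0.34 to -0.092 in these fits, against -0.034 to -0.014 over all genes tested. Muc1 was at -0.94 to -0.63 and Rab18 at -1.31 to -0.82. Of the wider lists, Plin1, Fitm2 and Cd59a were not called without the filter (adjusted p = 0.0599, 0.0519 and 0.0637) or with the methods' t-test (0.0786, 0.0685 and 0.0872), Afap1 was not called with that t-test (0.0584), and Fitm2 was not called with normexp (-0.38, 0.0624). Slide as a block was not run, because each slide held 1 genotype. The signal of the brightest probes limits what quantile normalization can show, as for Mfge8.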
